A study of Mus musculus with 18 samples.

Results

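The comparison described here is the step between the DN1 and DN2 fractions of a mouse T cell lymphoma. It was defined from the array titles alone: 3 arrays of DN2 lymphoma cells were set against 3 arrays of DN1 lymphoma cells, which makes 6 of the 18 arrays of the series. The lymphomas arose in the thymus of mice with the Lck-Cre transgene, in which the Lck promoter drives Cre recombinase in early T cells. After sublethal irradiation these mice received marrow that had been transduced by a retroviral vector for NPM-ALK, a constitutively active tyrosine kinase made by a translocation in human T cell lymphomas, so that the kinase was expressed in the T lineage. Mice were killed when moribund, and the series design counts 3 lymphomas. By the labels the DN2 and DN1 fractions share the genotype, the transplant and the tumour type, and differ in the sort gate. Cells were gated on CD4, CD8, CD25, CD44, the IL-7 receptor alpha chain, KIT, SCA1 and lineage markers. Irradiated hosts keep some of their own blood cells, and the labels do not say which sorted cells carried the virus. A description field calls both fractions cells of an aged wild type mouse irradiated with 4 Gy, which differs from the genotype field, so the irradiation dose is not certain. The labels do not say whether arrays with the same replicate number came from the same mouse. The p-values below therefore measure the spread between these samples, which may be partly technical. The DN3, DN4 and common lymphoid progenitor (CLP) fractions of the lymphomas, 3 arrays each, entered the model to estimate the spread, and DN3 served for comparison with the next step. The description gives 4 Gy for DN3 and for CLP replicates 1 and 2, but no dose for DN4 or CLP replicate 3. The healthy bone marrow LSK cells of the series were left out of the main model.

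In the normal thymus, progenitors without CD4 and CD8 pass through 4 double-negative stages. DN1 cells carry CD44 and lack CD25, DN2 cells carry both, DN3 cells keep CD25 and lose CD44, and DN4 cells lack both. Over the DN1 to DN2 transition the cells receive Notch ligand from the thymic epithelium, expand, and begin to give up the options of becoming B, myeloid or natural killer cells. Notch receptors are cut on ligand binding and their inner part joins the DNA-binding protein RBPJ to switch on targets such as Dtx1, Ptcra and Il2ra. Entry into S phase is driven by E2F factors, which bind promoters of genes for DNA replication and nucleotide supply.

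Values are log2 signals from Affymetrix arrays after RMA, a background correction, normalisation and summary step, so a difference of 1 is a 2-fold change. Signal levels can be compared between arrays for 1 gene, not between genes. The 95th percentile of 1108 probe sets for olfactory receptors, which these cells should not express, lay between 5.44 and 5.71 on the 6 arrays and served as the background level. Arrays correlated over all genes at 0.992 to 0.993 within DN2, 0.982 to 0.99 within DN1, and 0.979 to 0.991 between the fractions. The correlations between the fractions thus overlapped with those within DN1.

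Transcripts of the surface proteins used for sorting checked the gate. Of 7 such genes measured, Il2ra was called higher, Cd44 was called lower and 5 were not called. The groups did not overlap for 6 of the 7, compared with 14.5% of all genes. Not all of them are described here. Il2ra, which encodes CD25, had signals of 11.81, 11.86 and 11.76 on the DN2 arrays, against 8.92, 8.88 and 9.32 on the DN1 arrays. All 3 DN1 values lay well above the background level. Kit, the stem cell factor receptor used in the gate, had 10.65, 10.79 and 10.59 in DN2 cells, against 10.61, 10.9 and 10.79 in DN1 cells, and the groups overlapped. Cd44 fell in DN2 cells to a mean of 5.95, against 6.64 in DN1 cells (log2 difference -0.70, SE 0.15, adjusted p = 0.0235, limma), although the usual definition has CD44 on both stages. That call was lost when DN2 replicate 2 (adjusted p = 0.149), DN2 replicate 3 (0.132), DN1 replicate 1 (0.0883) or DN1 replicate 3 (0.13) was left out of the limma fit. Il7r had 8.70, 8.66 and 8.57 in DN2 cells and 9.67, 9.71 and 9.88 in DN1 cells. The groups did not overlap, but the difference of -1.11 missed the threshold (adjusted p = 0.0664, limma). Cd8a lay at the background level in DN2 cells and below it in DN1 cells, whereas Cd8b1 averaged 8.17 in DN2 cells and 8.81 in DN1 cells (adjusted p = 0.199, limma), so Cd8b1 transcripts were present in fractions gated on absence of CD8. Of 13 T surface genes measured, all 13 were above background on every array of both fractions. The defining T lineage transcripts were thus present in both fractions.

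Across 22180 genes, 300 differed between DN2 and DN1 cells (1.35% of genes tested, limma over the 15 lymphoma arrays, Benjamini-Hochberg adjusted p under 0.05). Of these, 157 were higher in DN2 cells (0.708%) and 143 were lower (0.645%). The falls were larger: 75 of the falls and 42 of the rises reached 2-fold, which is 0.528% of all genes together. The 3 DN2 values and 3 DN1 values did not overlap for any of the 300, compared with 14.5% of all genes. The median difference over all genes was 0.016. Without CLP in the model the count was 537. Leaving out 1 array gave 144 calls without DN2 replicate 2, 168 without DN2 replicate 3, and 202 to 264 for the other 4 arrays, and 124 of the 300 genes were called in all 6 of these fits.

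**Figure D1:**
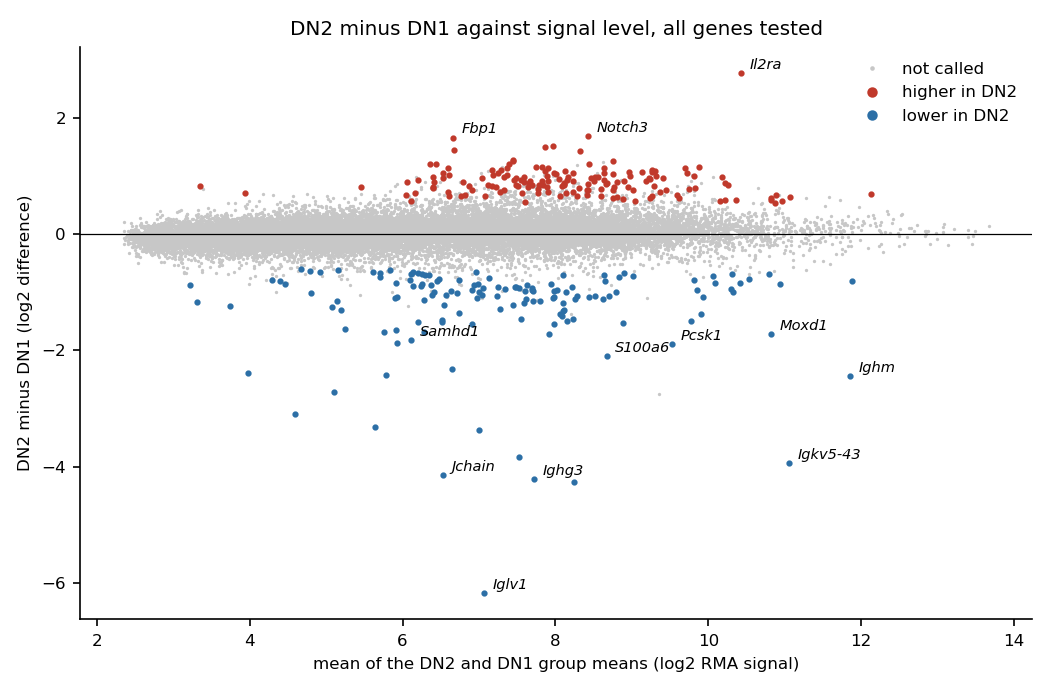
Each point is 1 of the 22180 genes, with the mean of the DN2 and DN1 group means (log2 RMA signal) on the x axis and DN2 minus DN1 (log2 difference) on the y axis. Red points are the 157 genes higher in DN2 and blue points the 143 lower (adjusted p under 0.05, limma). Il2ra is the highest point, and immunoglobulin genes and Jchain make up the lowest ones.

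The rise with the largest log2 difference was Il2ra (probe set 17366992) at 2.77 (SE 0.147, 6.82-fold, adjusted p = 1.31e-08, limma). Since CD25 was part of the gate, this checks the sort and is no independent result. Other genes of the Notch pathway rose with it. Notch3 (probe set 17343299), a receptor that is itself a Notch target in thymocytes, had 9.25, 9.47 and 9.09 in DN2 cells, against 7.32, 7.99 and 7.46 in DN1 cells (3.2-fold, SE 0.209 on the log2 scale, adjusted p = 0.000344, limma). Dtx1 (probe set 17452038), an E3 ligase of the Deltex family that marks Notch signalling in T cells, had 8.71, 8.87 and 8.59 in DN2 cells, against 7.04, 7.18 and 7.42 in DN1 cells (2.86-fold, adjusted p = 4.82e-05, limma). Ptcra (probe set 17345581), the invariant pre-T cell receptor alpha chain, had 6.98, 7.02 and 7.11 in DN2 cells, against 5.76, 5.94 and 5.83 in DN1 cells (2.29-fold, adjusted p = 0.000696, limma). For each of these genes every DN2 array was above every DN1 array, as for every gene called higher. In DN1 cells Ptcra lay just above background.

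Of 27 Notch receptors, ligands, partners and targets measured, 4 rose, none fell and 23 were not called, with a median difference of 0.10. The share called was 14.8%, against 0.708% of all genes called higher. The 4 included Il2ra, whose protein was part of the gate. Leaving out DN1 replicate 2 raised the count to 7 called members and the median to 0.24. Notch1, the main Notch receptor of thymocytes, was one of those near the threshold. Its signals were 10.52, 10.44 and 9.91 in DN2 cells, against 9.15, 9.81 and 8.86 in DN1 cells, and the difference of 1.01 (SE 0.245) missed the threshold (adjusted p = 0.051, limma). Notch2 averaged 7.92 in DN2 cells and 7.90 in DN1 cells, and Notch4 averaged 6.89 in DN2 cells and 6.86 in DN1 cells. The differences were 0.03 for both (SE 0.186 and 0.133). Further targets had differences short of the threshold: 0.30 for the repressor Hes1, 0.73 for its relative Heyl, and 0.77 for the feedback inhibitor Nrarp (adjusted p = 0.894, 0.119 and 0.179, limma). Myc, another Notch target, overlapped between the groups, at 10.15 to 10.59 in DN2 cells and 9.24 to 10.42 in DN1 cells. Lfng, the glycosyltransferase that sensitises Notch1 to Delta ligands, averaged 7.84 in DN2 cells and 8.37 in DN1 cells (adjusted p = 0.459, limma).

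**Figure D2:**
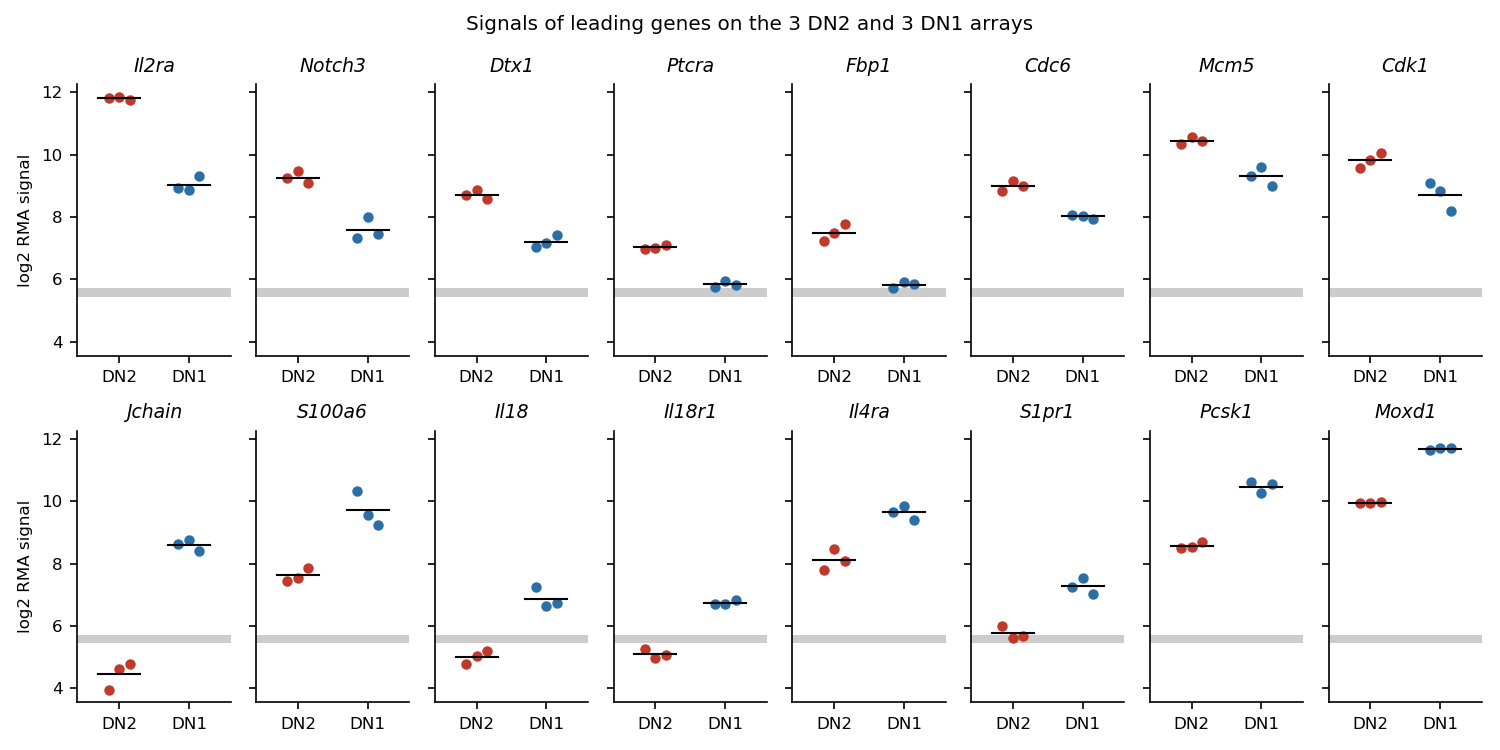
Each panel shows 1 gene, with the log2 RMA signal of the 3 DN2 arrays (red, left) and the 3 DN1 arrays (blue, right) on the y axis. Black lines are group means and the grey band is the range of the background level, 5.44 to 5.71. The top row holds genes higher in DN2 and the bottom row genes lower in DN2. In no panel do the groups overlap, as for all 300 called genes.

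Most factors of T lineage commitment did not pass the test. Of 18 measured, only Lef1 was called (5.6% of the list, against 1.35% of all genes, median difference 0.08). However, 8 of the 18 had an unadjusted p under 0.05, against 1736 of all 22180 genes. The groups did not overlap for 6 of the 18, compared with 14.5% of all genes. Lef1, a partner of beta-catenin, had 11.04, 11.41 and 11.20 in DN2 cells, against 10.28, 10.63 and 10.72 in DN1 cells (1.59-fold, adjusted p = 0.0362, limma). The call was lost without DN2 replicate 2 (adjusted p = 0.232), DN2 replicate 3 (0.132), DN1 replicate 1 (0.193) or DN1 replicate 2 (0.0703). Bcl11b, which fixes the T cell fate at the end of DN2 in the normal thymus, had 9.53, 9.98 and 9.61 in DN2 cells, against 9.28, 9.86 and 9.02 in DN1 cells, with overlap. It was thus already far above background in DN1 lymphoma cells. Gata3 differed by 0.23 and Runx1 by 0.37, with adjusted p of 0.916 and 0.459 (limma). Myb (0.67) and Runx3 (-0.59) each missed the threshold at an adjusted p of 0.0581 (limma), Myb higher and Runx3 lower in DN2 cells. Of 9 genes for the pre-T cell receptor and recombination, Ptcra and Arpp21 were called (22.2%, against 1.35% of all genes). Arpp21, a phosphoprotein gene of immature thymocytes, averaged 8.39 in DN2 cells and 7.39 in DN1 cells (2.0-fold, adjusted p = 0.0106, limma), and was not called without DN2 replicate 1, DN2 replicate 2 or DN1 replicate 3 (adjusted p = 0.0516, 0.0526 and 0.0681, limma). None of 16 early progenitor genes was called by limma (median -0.06), and 1 had an unadjusted p under 0.05. None of 6 genes for E proteins and their ID inhibitors was called by limma (median 0.17), and 2 had an unadjusted p under 0.05, against 1736 of all 22180 genes.

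Genes for DNA replication formed the largest group of rises. Of 32 measured, 24 rose and none fell (75%, against 0.708% of all genes called higher), with a median difference of 0.86. All 32 were above background on every array and all 32 differences were positive. Cdc6, which loads the helicase onto origins, had 8.84, 9.16 and 9.0 in DN2 cells, against 8.07, 8.05 and 7.95 in DN1 cells (1.97-fold, SE 0.124, adjusted p = 0.000413, limma). Mcm5, a subunit of that helicase, had 10.35, 10.58 and 10.43 in DN2 cells, against 9.33, 9.61 and 8.99 in DN1 cells (2.21-fold, adjusted p = 0.00176, limma). The lowest DN2 value lay above the highest DN1 value for both genes, by more than the range within DN2 cells for each.

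Promoters of replication genes are shown for Cdc6 and 3 of the helicase subunits. These 4 promoters were chosen because they carry matches to the E2F motif, so that they share it is no result. Each is the 250 bases before the annotated start, from RefSeq on GRCm38.p6, written 5′ to 3′ on the strand of the gene. Capitals mark matches to TTTCCCGC, TTTCGCGC, TTTGCCGC or TTTGGCGC on either strand, where matches that overlap run together. Cdc6 lies at chr11:98907901-98908150 (plus strand), Mcm5 at chr8:75109259-75109508 (plus strand), Mcm6 at chr1:128359706-128359955 (minus strand) and Mcm7 at chr5:138171884-138172133 (minus strand, the first of its promoters).
Cdc6: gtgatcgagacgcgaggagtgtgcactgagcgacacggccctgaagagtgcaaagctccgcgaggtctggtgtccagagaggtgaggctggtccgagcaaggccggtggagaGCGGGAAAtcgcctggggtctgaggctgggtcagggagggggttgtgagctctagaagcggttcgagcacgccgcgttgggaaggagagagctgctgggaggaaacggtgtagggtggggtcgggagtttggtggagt
Mcm5: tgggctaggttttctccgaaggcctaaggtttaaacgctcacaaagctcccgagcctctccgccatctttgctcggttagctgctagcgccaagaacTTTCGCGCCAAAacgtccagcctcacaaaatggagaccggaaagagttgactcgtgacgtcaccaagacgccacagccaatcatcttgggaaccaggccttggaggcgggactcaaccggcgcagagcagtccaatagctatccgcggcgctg
Mcm6: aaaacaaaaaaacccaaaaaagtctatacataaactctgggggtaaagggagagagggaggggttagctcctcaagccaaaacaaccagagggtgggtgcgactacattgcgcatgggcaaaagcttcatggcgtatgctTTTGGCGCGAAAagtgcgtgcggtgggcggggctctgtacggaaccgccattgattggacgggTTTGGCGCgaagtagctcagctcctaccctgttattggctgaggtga
Mcm7: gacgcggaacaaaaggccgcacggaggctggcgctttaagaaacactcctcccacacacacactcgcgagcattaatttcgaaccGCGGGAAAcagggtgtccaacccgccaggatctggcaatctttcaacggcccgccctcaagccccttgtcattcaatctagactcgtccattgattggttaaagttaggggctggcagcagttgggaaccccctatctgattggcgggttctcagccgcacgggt

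The E2F motif was searched in windows from 250 bases before to 50 bases after each annotated start, and a gene counted if any of its windows held a match. Of the 24 replication genes that rose, 20 had a window and 10 of these held a match (50%): Cdc6, Mcm5, Mcm6, Mcm7, Lig1, Pold1, Uhrf1, Rfc3, Cdt1 and Dnmt1. The share was also 50% (14 of 28) over all replication genes measured, so the genes that rose held it no more often than the whole list. Among repair genes that rose, 4 of 13 held a match (30.8%), and among mitosis genes that rose, 1 of 7 (14.3%). It was 21.7% for all genes higher in DN2 (28 of 129), 3.16% for all genes lower in DN2 (3 of 95) and 3.26% for all measured genes with a window (554 of 16990). Over single windows it was 2.26% of 32851. The RBPJ motif GTGGGAA, on either strand, was in none of the 4 Notch pathway genes that rose, against 7.09% of all measured genes. A match describes letters in a window and does not show that a factor bound there.

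**Figure D3:**
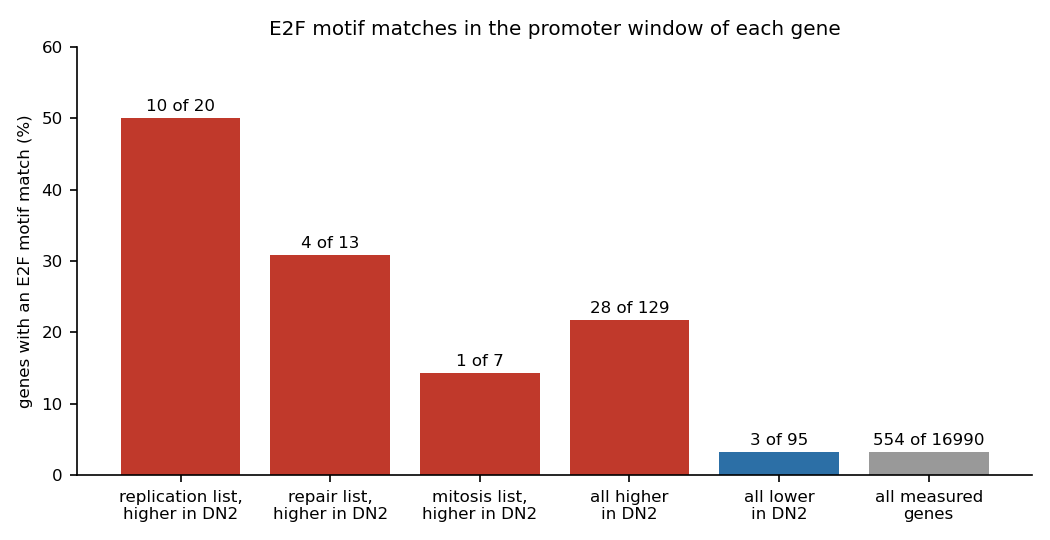
Bars give the percentage of genes with at least 1 E2F motif match in a promoter window, for gene sets named on the x axis, with counts above the bars. Red bars are sets of genes higher in DN2, the blue bar all genes lower in DN2, and the grey bar all measured genes. Replication genes higher in DN2 reach 50%, against 3.26% of all measured genes.

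The other replication genes covered each step of the process. At origins, Mcm2, Mcm4, Mcm6, Mcm7, Mcm10, Cdt1 and Cdc45 rose by 0.59 to 0.98, and the subunits Gins1 and Gins2 of the active helicase by 0.84 and 1.26. At the fork, DNA ligase Lig1 rose 2.06-fold and the leading strand polymerase Pole 1.99-fold (adjusted p = 0.00176 and 0.000622, limma). For nucleotide supply, thymidine kinase Tk1 rose 2.18-fold and the ribonucleotide reductase subunit Rrm2 1.89-fold (adjusted p = 0.00346 and 0.00487, limma). Uhrf1, which recruits the DNA methyltransferase to new DNA, rose 2.11-fold and the methyltransferase Dnmt1 rose 1.73-fold. In the fits without 1 array, Mcm4 and Gins1 were called in 5 of 6, Mcm2 and Mcm10 in 4 of 6, and Gins2 in 3 of 6. Dnmt1 (adjusted p = 0.0304, limma) was not called without DN2 replicate 1, DN2 replicate 2, DN1 replicate 1 or DN1 replicate 3 (0.13, 0.178, 0.0837 and 0.163), and Cdt1 (0.0247) was called without DN1 replicate 2 only (0.0166). Among the promoters printed above, the call of Mcm6 (adjusted p = 0.0292, limma) held only without DN1 replicate 3 (0.0284), and that of Mcm7 (0.00857) was lost without DN2 replicate 2 (0.0709) or DN1 replicate 1 (0.0569). Mcm3 and the sliding clamp Pcna, with differences of 0.88 and 0.58, missed the threshold (adjusted p = 0.0681 and 0.0744, limma). Of the 24, 9 were called in all 6 fits that left out 1 array, and the count ranged from 11 without DN2 replicate 2 to 20 without DN1 replicate 2, with 15 without DN2 replicate 3 and 14 without DN1 replicate 3.

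Repair, chromatin and mitosis genes rose as well. Of 39 measured genes for DNA repair and the S-phase checkpoint, 15 rose and none fell (38.5%, against 0.708% of all genes called higher, median 0.64). Chek1, the kinase that halts the cycle when forks stall, had 8.31, 8.55 and 8.33 in DN2 cells, against 7.06, 7.40 and 7.28 in DN1 cells (2.22-fold, adjusted p = 0.0017, limma). The exonuclease Exo1 rose 2.12-fold and the recombination gene Brca2 1.85-fold (adjusted p = 0.000387 and 0.000462, limma). The fits without 1 array called 6 to 12 of the 39, with 6 without DN2 replicate 2 and 9 without DN2 replicate 3 or DN1 replicate 3.

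Of 22 genes for chromatin assembly, condensin and cohesion, 12 rose and none fell (54.5%, against 0.708% of all genes called higher, median 0.66). The largest subunit of the histone loader CAF-1, Chaf1a, had 7.78, 8.03 and 7.71 in DN2 cells, against 6.80, 7.01 and 6.39 in DN1 cells (2.15-fold, adjusted p = 0.00107, limma). Hells, a remodeller needed for DNA methylation, rose 1.87-fold (adjusted p = 0.00392, limma). Esco2, which locks cohesin onto sister chromatids, rose 2.21-fold (adjusted p = 0.0083, limma), a call lost without DN2 replicate 2 (0.0576) or DN2 replicate 3 (0.06). The fits without 1 array called 3 of the 22 without DN2 replicate 2, 4 without DN2 replicate 3, 4 without DN1 replicate 1, 7 without DN1 replicate 3, and 8 or 9 otherwise.

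Of 29 mitosis and spindle genes, 9 rose and none fell (31%, against 0.708% of all genes called higher, median 0.70). All 29 differences were positive. Aurkb, the kinase of the chromosomal passenger complex, had 10.15, 10.37 and 10.24 in DN2 cells, against 9.10, 9.21 and 9.07 in DN1 cells (2.19-fold, adjusted p = 0.00442, limma). Cdk1, the kinase that starts mitosis, had 9.57, 9.82 and 10.07 in DN2 cells, against 9.11, 8.83 and 8.21 in DN1 cells (2.16-fold, adjusted p = 0.0181, limma). The groups stood apart by less for Cdk1, and its call was lost without DN2 replicate 2 (0.087), DN2 replicate 3 (0.13) or DN1 replicate 3 (0.111). Mki67, which encodes the Ki-67 antigen, was already high at a mean of 10.08 in DN1 cells and averaged 10.66 in DN2 cells (1.5-fold, adjusted p = 0.0342, limma), and of the fits without 1 array only that without DN2 replicate 1 called it (0.0434). Plk1 (0.74), Top2a (0.62) and Ccnb2 (0.10) were not called. The fits without 1 array called 2 mitosis genes without DN2 replicate 2 or DN2 replicate 3, 3 without DN1 replicate 1 or DN1 replicate 3, 5 without DN1 replicate 2 and 9 without DN2 replicate 1.

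The rise did not extend to all growth genes. Of 22 cyclins, kinases and inhibitors of G1, 2 rose: Rbl1, which encodes the pocket protein p107 (1.99-fold, adjusted p = 0.00376, limma), and the repressor E2f8 (1.96-fold, adjusted p = 0.00481, limma). That is 9.1% of the list, against 0.708% of all genes called higher. Of the 22 differences 15 were positive, and 9 had an unadjusted p under 0.05, against 1736 of all 22180 genes. The groups did not overlap for 9 of the 22, compared with 14.5% of all genes. The D cyclins Ccnd2 and Ccnd3 differed by -0.16 and 0.17, with overlap between the groups. Ccnd2 lay close to background in both fractions. None of 23 MYC and ribosome biogenesis genes was called by limma (median 0.11), and 1 had an unadjusted p under 0.05. None was free of overlap between the groups, compared with 14.5% of all genes. Of 19 glycolysis and hypoxia genes only Fbp1 was called, and 6 had an unadjusted p under 0.05. Across the replication, mitosis, repair, chromatin and G1 lists, 144 genes were measured. They held 62 of the 157 genes higher in DN2 and 0 of the 143 lower.

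Beyond Notch and cell cycle genes, the rises that ranked highest had varied roles. Fbp1, the gluconeogenic fructose bisphosphatase, had 7.22, 7.49 and 7.77 in DN2 cells, against 5.73, 5.92 and 5.85 in DN1 cells (3.16-fold, adjusted p = 0.000125, limma). Adgrg1, an adhesion G protein-coupled receptor, had 8.42, 8.84 and 8.58 in DN2 cells, against 7.01, 7.16 and 7.16 in DN1 cells (2.83-fold, adjusted p = 3.24e-05, limma). Fbp1 in DN1 cells lay just above background, whereas Adgrg1 was well above it in both fractions. Aldh1b1, a mitochondrial aldehyde dehydrogenase, rose 2.13-fold, the transcriptional cofactor Lmcd1 2.2-fold, and Gria2, which encodes a glutamate receptor subunit, 2.31-fold (adjusted p = 0.000462, 0.000625 and 0.00376, limma). Wdr25, a WD repeat gene, rose 2.39-fold with a range of only 9.36 to 9.40 in DN2 cells, against 7.85 to 8.30 in DN1 cells. Uaca, Apol11b and Cfap20dc rose 2.68-fold, 2.71-fold and 2.19-fold. Ifi204, an interferon-inducible DNA sensor gene, rose 2.42-fold (adjusted p = 0.0118, limma), but not without DN2 replicate 2 (0.0691), DN2 replicate 3 (0.0748) or DN1 replicate 3 (0.0539). Of 21 interferon response genes only Ifit2 was called (1.63-fold higher, median of the list 0.02), and of the fits without 1 array only that without DN1 replicate 3 called it (adjusted p = 0.0113, limma). Il12rb2, which encodes a chain of the IL-12 receptor, averaged 8.30 in DN2 cells and 7.49 in DN1 cells (1.75-fold, adjusted p = 0.021, limma). This call was lost without DN2 replicate 2 (0.102), DN2 replicate 3 (0.141) or DN1 replicate 1 (0.127).

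Other cytokine receptors fell. Of 20 measured, the gate marker Il2ra and Il12rb2 rose and 5 fell (35% called, against 1.35% of all genes, median -0.25). In the fits without 1 array 3 of the falls were called without DN2 replicate 2, DN2 replicate 3 or DN1 replicate 1, and 4 otherwise. Il4ra (probe set 17482943), shared by the IL-4 and IL-13 receptors, had 7.80, 8.48 and 8.08 in DN2 cells, against 9.67, 9.86 and 9.39 in DN1 cells (2.88-fold lower, adjusted p = 0.000799, limma). Il18r1, which binds IL-18, had 5.25, 4.97 and 5.06 in DN2 cells, below the background level, against 6.69, 6.69 and 6.84 in DN1 cells (at least 2.37-fold lower, adjusted p = 3.43e-06, limma). An "at least" value sets the DN1 mean against the DN2 background level, because a signal below that level gives no exact fold. Il21r fell 2.16-fold (adjusted p = 0.000625, limma). Il6ra had 6.26, 5.91 and 5.95 in DN2 cells, against 7.69, 7.16 and 6.44 in DN1 cells. Its call (adjusted p = 0.0448, limma) held in only 1 of the 6 fits that left out 1 array, the one without DN1 replicate 3 (0.00426), and reached 0.221 without DN1 replicate 1. The IL-18 receptor accessory chain Il18rap, at 5.34 on average in DN2 cells and 6.08 in DN1 cells (adjusted p = 0.0448, limma), was called without DN2 replicate 1 or DN1 replicate 2 only.

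The ligand of Il18r1 fell with it. Il18 had 4.78, 5.02 and 5.18 in DN2 cells, below background, against 7.25, 6.64 and 6.74 in DN1 cells (at least 2.6-fold lower, adjusted p = 0.000702, limma). The T helper 17 cytokine Il17f averaged 6.05 in DN2 cells and 6.85 in DN1 cells (1.74-fold lower, adjusted p = 0.00239, limma). Lymphotoxin beta, Ltb, averaged 8.29 in DN2 cells and 9.29 in DN1 cells (2.0-fold lower, adjusted p = 0.0173, limma), which was not called without DN2 replicate 1 (0.0898), DN2 replicate 2 (0.111), DN1 replicate 1 (0.0764) or DN1 replicate 2 (0.0631). Il22, an NPM-ALK linked cytokine gene, was called lower but was below background on all 6 arrays. Of 21 cytokine genes measured, these 4 were called lower (19.0%, against 0.645% of all genes), none was called higher and the median was -0.10. Of 29 genes linked to NPM-ALK or STAT3, only Il22 was called (median -0.18), and 9 had an unadjusted p under 0.05.

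Some members of a list of calcium-binding, galectin and membrane protein genes fell, but most were not called. Of 22 genes in the vimentin, annexin, galectin and S100 list, 6 fell and none rose (27.3%, median -0.49, against 0.645% of all genes called lower). Without DN2 replicate 1 or DN2 replicate 2 the count was 3, without DN2 replicate 3 or DN1 replicate 1 it was 4, and 3 genes were called in all 6 such fits. S100a6 (probe set 17399812), a calcium-binding protein gene, had 7.45, 7.55 and 7.87 in DN2 cells, against 10.34, 9.55 and 9.25 in DN1 cells (4.27-fold lower, SE 0.295 on the log2 scale, adjusted p = 0.000875, limma). Lgals1, which encodes galectin-1, had 9.10, 8.59 and 9.37 in DN2 cells, against 10.92, 10.20 and 10.45 in DN1 cells (2.83-fold lower, adjusted p = 0.00346, limma). The membrane protein gene Emp3 fell 2.49-fold (adjusted p = 0.000725, limma). S100a4, linked to cell motility, fell 2.81-fold (adjusted p = 0.0086, limma), a call lost without DN2 replicate 1 (0.0535), DN2 replicate 2 (0.0526) or DN1 replicate 1 (0.0569). Emp1 was called in 1 of the 6 fits without 1 array (without DN1 replicate 2, adjusted p = 0.0215), and Anxa1, below background on all 6 arrays, in none of the 6 (0.0554 to 0.179). Vim, which encodes vimentin, averaged 10.26 in DN2 cells and 10.83 in DN1 cells and was not called (adjusted p = 0.229, limma).

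Among 18 homing and adhesion genes, Itgb7 and S1pr1 fell (11.1%, against 0.645% of all genes called lower, median -0.19). S1pr1, the sphingosine 1-phosphate receptor that lets lymphocytes leave tissue, had 5.99, 5.60 and 5.69 in DN2 cells, close to background, against 7.26, 7.53 and 7.02 in DN1 cells (2.85-fold lower, adjusted p = 0.00026, limma). Itgb7, the integrin beta 7 chain of gut homing, had 7.46, 7.35 and 7.48 in DN2 cells, against 8.81, 8.75 and 8.71 in DN1 cells (2.5-fold lower, adjusted p = 0.000291, limma). The integrin alpha 2 chain Itga2 fell 2.75-fold and Selp, which encodes P-selectin, 2.93-fold (adjusted p = 3.05e-05 and 0.00346, limma). All 4 genes were higher on every DN1 array than on any DN2 array, as was every gene called lower. Cd226, an activating receptor gene of T and natural killer cells, was below background in DN2 cells, at 5.42 to 5.48, against 6.85 to 7.15 in DN1 cells (at least 2.77-fold lower, adjusted p = 0.00619, limma). Cd69, an early activation antigen that opposes S1pr1 at the cell surface, averaged 9.39 in DN2 cells and 10.47 in DN1 cells (2.11-fold lower, adjusted p = 0.000816, limma). Of 19 Ly6 family genes 2 were called, both lower (10.5%, median -0.01). Ly6c1, a marker of differentiated T cells and monocytes, fell 2.66-fold (adjusted p = 0.00353, limma). Its neighbour Ly6c2 (2.59-fold lower, adjusted p = 0.0293, limma) was called without DN2 replicate 3 only, with adjusted p up to 0.175 in the others, and the near-identical sequences of both genes can share probes.

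Several enzymes and regulators ranked among the largest falls. Pcsk1 (probe set 17288677), a prohormone convertase, had 8.50, 8.53 and 8.69 in DN2 cells, against 10.61, 10.27 and 10.54 in DN1 cells (3.73-fold lower, adjusted p = 0.00176, limma). Moxd1 (probe set 17232215), a copper-dependent monooxygenase, had 9.95, 9.95 and 9.98 in DN2 cells, against 11.66, 11.70 and 11.72 in DN1 cells (3.31-fold lower, adjusted p = 0.00543, limma). Both remained far above background in DN2 cells. Samhd1, which degrades deoxynucleotides and so restricts retroviruses, had 5.11, 5.32 and 5.18 in DN2 cells, below background, against 6.82, 7.15 and 7.12 in DN1 cells (at least 2.89-fold lower, adjusted p = 1.89e-06, limma). The reductase subunit genes Rrm1 and Rrm2, whose products make deoxynucleotides, were higher in DN2 cells, but Rrm1 (adjusted p = 0.0155, limma) was not called without DN2 replicate 1, DN2 replicate 2, DN1 replicate 1 or DN1 replicate 3 (0.0571, 0.102, 0.0554 and 0.0629). The chromatin factor gene Arid5b fell to the background level, at 5.57, 5.38 and 5.36 in DN2 cells, against 7.32, 7.18 and 6.87 in DN1 cells, so its fold is not given, and the TEC kinase gene Txk fell 2.75-fold to 7.50, against 8.96 in DN1 cells (adjusted p = 0.00031 and 0.000208, limma). Lrrc6, a ciliary assembly gene, likewise lay at background in DN2 cells, at 5.46 to 5.52, against 7.64 to 7.90 in DN1 cells (adjusted p = 0.000596, limma). The organic ion carrier Slc22a23 fell 2.8-fold and the melanosome and macrophage glycoprotein Gpnmb 2.56-fold (adjusted p = 0.000523 and 4.82e-05, limma). The growth factor gene Pdgfc fell 3.3-fold (adjusted p = 0.00842, limma), and without DN2 replicate 1 it missed the threshold (0.054). Ms4a6c was below background in DN2 cells (at least 1.48-fold lower, adjusted p = 0.00026, limma). Cd7, a T cell surface glycoprotein, averaged 6.83 in DN2 cells and 8.06 in DN1 cells (adjusted p = 0.0392, limma) but was called in none of the 6 fits without 1 array, where the adjusted p ran from 0.0847 without DN1 replicate 3 to 0.195 without DN2 replicate 1.

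The falls with the largest log2 difference were immunoglobulin transcripts. Of 22 genes in a list of immunoglobulin genes and Jchain, 17 fell and none rose (77.3%, against 0.645% of all genes called lower, median -2.58). This list was put together after their values were seen. Of the 22, 5 were above background on all DN2 arrays and 14 on all DN1 arrays, so the median holds signals that could fall no further. Jchain (probe set 17449447), which joins antibody units, had 3.94, 4.62 and 4.79 in DN2 cells, below background, against 8.64, 8.77 and 8.40 in DN1 cells (at least 8.61-fold lower, adjusted p = 2.2e-08, limma). The light chain segment Iglv1 had 3.48, 4.34 and 4.11 in DN2 cells, against 9.61, 10.54 and 10.32 in DN1 cells (at least 25.2-fold lower, adjusted p = 1.61e-10, limma). Ighm, the heavy chain of IgM, stayed far above background at 9.95, 10.90 and 11.03 in DN2 cells, against 12.87, 13.27 and 13.08 in DN1 cells (5.45-fold lower, adjusted p = 6.43e-06, limma). Ighg3 varied between DN1 arrays, at 8.19, 10.84 and 10.47, against 5.73, 5.59 and 5.52 in DN2 cells. Probe sets for variable segments can share near-identical sequence, so which segments were transcribed is uncertain.

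Most markers of B cells and plasma cells did not pass the test, although most differences were negative. Igll1 was called higher, Jchain was called lower and 21 were not called (8.7% called, against 1.35% of all genes, median -0.15). Only 4 of the 23 differences were positive. The groups did not overlap for 9 of the 23, compared with 14.5% of all genes. Of the 23 B cell and plasma cell markers measured, 9 were above background on all DN2 arrays and 11 on all DN1 arrays, and the mean of the list per array was 5.47 to 5.54 in DN2 and 5.77 to 5.96 in DN1. The B cell antigen Ms4a1 averaged 3.78 in DN2 cells and 3.87 in DN1 cells, Ebf1 averaged 4.71 in DN2 cells and 4.96 in DN1 cells, and both were below background. Pax5, the B lineage factor, had 5.51, 5.47 and 5.38 in DN2 cells, against 5.54, 6.06 and 5.86 in DN1 cells (adjusted p = 0.455, limma). The plasma cell marker Sdc1 averaged 7.70 in DN2 cells and 7.72 in DN1 cells. Xbp1, a factor of secretory cells, averaged 9.41 in DN2 cells and 10.10 in DN1 cells (adjusted p = 0.0527, limma), and Irf4 6.49 in DN2 cells and 7.52 in DN1 cells (adjusted p = 0.215, limma). Igll1, a surrogate light chain gene of immature B cells, was 2.02-fold higher in DN2 cells (adjusted p = 0.0163, limma), a call lost without DN2 replicate 2, DN2 replicate 3 or DN1 replicate 3 (0.0846, 0.113 and 0.0948). The part of antibody-producing cells in the immunoglobulin result was not tested. With immunoglobulin genes and Jchain taken out of the table, 280 other genes were called.

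Of 15 macrophage, 11 dendritic cell, 8 erythroid and megakaryocyte, and 15 stromal markers, none was called by limma, with medians of -0.04, 0.07, 0.01 and -0.06, and 0, 2, 0 and 1 of them had an unadjusted p under 0.05. Of 19 granulocyte and mast cell markers, Lcn2 and Cpa3 fell (median -0.08, with 1 call without DN2 replicate 1 and 4 without DN1 replicate 1), and the mean of the list per array was 4.84 to 4.96 in DN2 cells and 4.92 to 5.38 in DN1 cells. Cpa3, a mast cell protease gene, had 6.73, 7.33 and 7.57 in DN2 cells, against 9.08, 8.67 and 8.52 in DN1 cells (2.92-fold lower, adjusted p = 0.00785, limma). Its call was lost without DN2 replicate 1 (0.0546) or DN1 replicate 1 (0.052). Of 9 class II genes, H2-Aa and H2-Eb1 fell 1.8-fold and 1.63-fold (median -0.09, with list means of 6.25 to 6.34 in DN2 and 6.47 to 6.70 in DN1). H2-Aa was not called without DN2 replicate 1 (adjusted p = 0.0623, limma) or DN1 replicate 3 (0.0502), nor H2-Eb1 without DN2 replicate 3 (0.0636). Of 25 cytotoxic, natural killer and innate lymphoid genes, Klrd1 and Rora were called lower (median -0.03), and both lay below background in DN2 cells and at or below it in DN1 cells. Klrd1 was called only without DN2 replicate 3 or DN1 replicate 2 (adjusted p = 0.0317 and 0.00361, limma), Rora was lost without DN2 replicate 3 or DN1 replicate 1 (0.0953 and 0.0539), and without DN1 replicate 1 the list held 0 calls. Of 16 mature T cell markers 3 were called lower, Cd69, Cd44 and Ctla4 (median -0.26). Ctla4 lay below background on every array and was called in none of the 6 fits without 1 array (adjusted p = 0.0554 to 0.14, limma), and the list held 2 calls without DN2 replicate 1 or DN1 replicate 2 and 1 call in each of the other 4. The shares called lower were 10.5% for granulocyte and mast cell, 22.2% for class II, 8.0% for cytotoxic and 18.8% for mature T cell genes. Over all genes 0.645% were called lower. A lower signal in a sorted fraction can mean fewer cells with the transcript or less transcript per cell, which these arrays cannot tell apart.

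**Figure D4:**
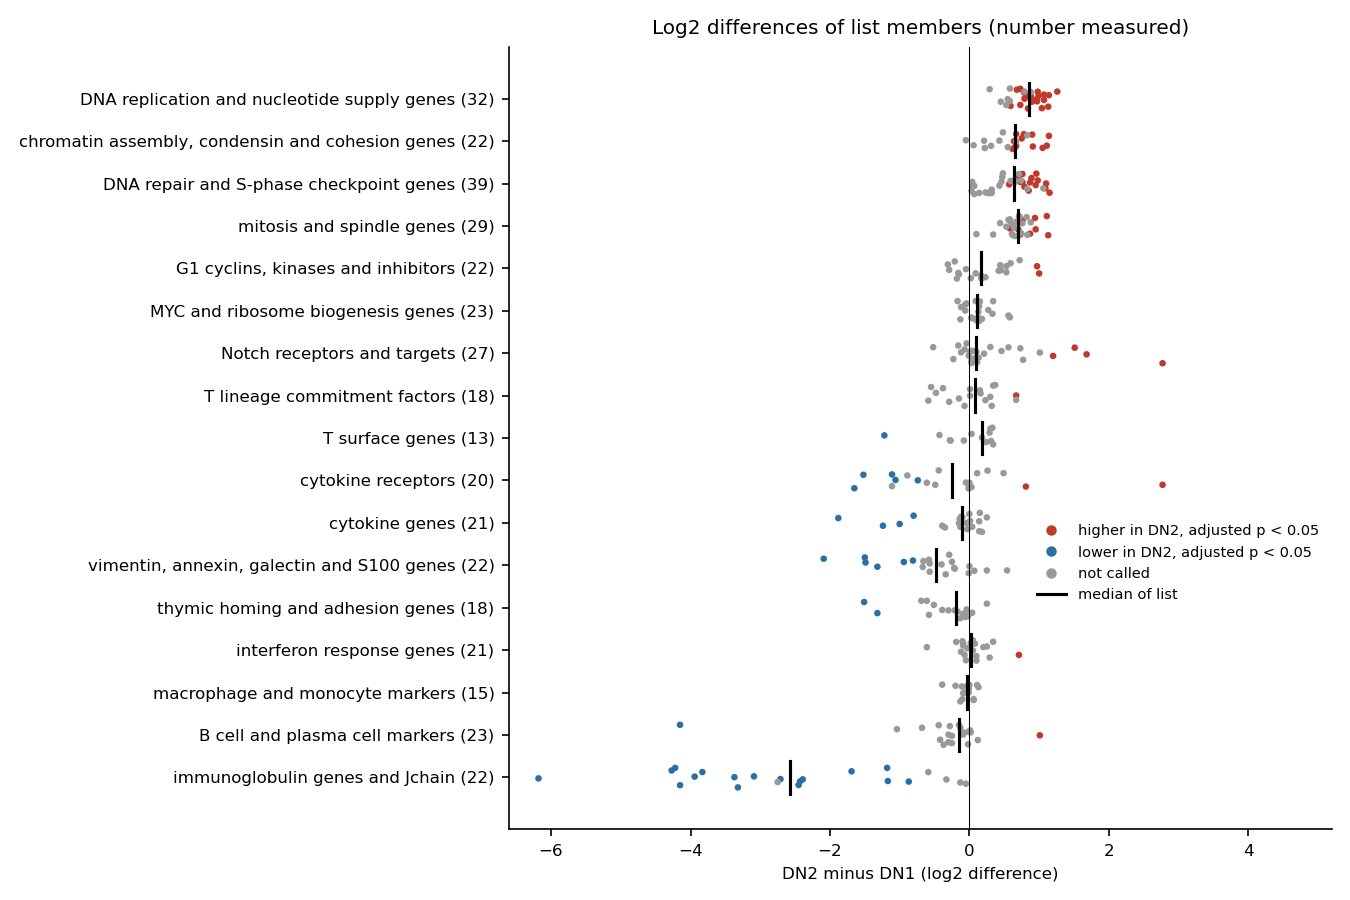
Each row is a gene list with the number of measured members in brackets, and each point is 1 member at its DN2 minus DN1 log2 difference. Red and blue points passed the test (higher and lower in DN2, adjusted p under 0.05, limma), grey points did not, and black bars are list medians. All replication, repair and mitosis genes and 21 of 22 chromatin genes lie to the right of 0, with medians of 0.64 to 0.86, and immunoglobulin genes to the left, with a median of -2.58.

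The step was then set against the next one, DN3 against DN2, which uses the same DN2 arrays. For DN3 minus DN2, 289 genes were higher in DN3 (1.3%) and 255 lower (1.15%). Of the 157 genes higher in DN2 than in DN1, 26 were higher again in DN3 than in DN2, 4 were lower and 127 were not called. Of the 143 genes lower in DN2, 45 fell again, 7 rose and 91 were not called. Because the steps share the DN2 arrays in opposite sign, these counts are descriptions. A contrast of the steps themselves called 136 genes (0.613%), 49 with the larger value at the DN1 to DN2 step (0.221%) and 87 with the smaller (0.392%). This count was 60, 57 and 65 without DN2 replicate 1, 2 and 3, and 254 without CLP.

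Of the replication and mitosis genes, 0 passed the limma test between DN3 and DN2 (medians 0.11 and -0.2), and 1 and 5 had an unadjusted p under 0.05. The contrast of the steps also called 0 of them, with 22 and 20 at an unadjusted p under 0.05 and adjusted p of 0.0989 for Cdc6 and 0.125 for Aurkb (limma), so a difference between the steps was not shown for these genes. Il2ra did differ: it changed by 2.77 from DN1 to DN2 and by 0.21 from DN2 to DN3 (difference of the steps 2.56, SE 0.255, adjusted p = 4e-05, limma). Since CD25 was part of the gate and is carried by both DN2 and DN3, this course follows the sort and is no independent result. Ptcra and Dtx1 went on rising at DN3, by 1.93 and 1.46 (adjusted p = 9.39e-07 and 1.51e-05, limma). Fbp1 rose by a further 2.78 and Lmcd1 by 2.31. For Ptcra, Dtx1, Fbp1 and Lmcd1 the steps did not differ beyond the threshold.

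Among the genes that fell, the contrast of the steps is limited by background: Jchain, Il18r1 and Samhd1 lay below it and S1pr1 close to it in DN2 cells, so that a second fall could not be measured. The contrast called a more negative first step for these genes and for 10 of the 22 in the immunoglobulin list, and the part of that floor in these calls was not tested. Moxd1 changed by -1.73 at the first step and then fell to a mean of 4.74 in DN3 cells, below background, against 9.96 in DN2 cells, so that the second fall is a lower bound, and it was the larger one (adjusted p of the difference 0.00241, limma). Kit, whose protein was also part of the gate, changed by -0.09 and then by -2.61, to 8.06 in DN3 cells (adjusted p = 5.61e-05, limma). Pcsk1, S100a6, Lgals1 and Il4ra fell at both steps without a called difference between them. Since Pcsk1 lay below background in DN3 cells, its second fall is a lower bound. Cpa3 and Trav7-4, a T cell receptor alpha segment, were low in DN2 cells relative to both neighbours. Trav7-4 averaged 8.38 in DN1, 7.51 in DN2 and 8.53 in DN3 cells (adjusted p of the difference 0.00287, limma), and its DN2 against DN1 call (0.0114) was lost without DN2 replicate 1 (0.0554), DN2 replicate 2 (0.0589), DN1 replicate 1 (0.0569) or DN1 replicate 3 (0.0552). It was 1 of 2 called among 8 T cell receptor segments, both lower in DN2. The other, Trav9d-3, was called in none of the 6 fits without 1 array (0.0618 to 0.157), and segments of this family share near-identical copies.

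**Figure D5:**
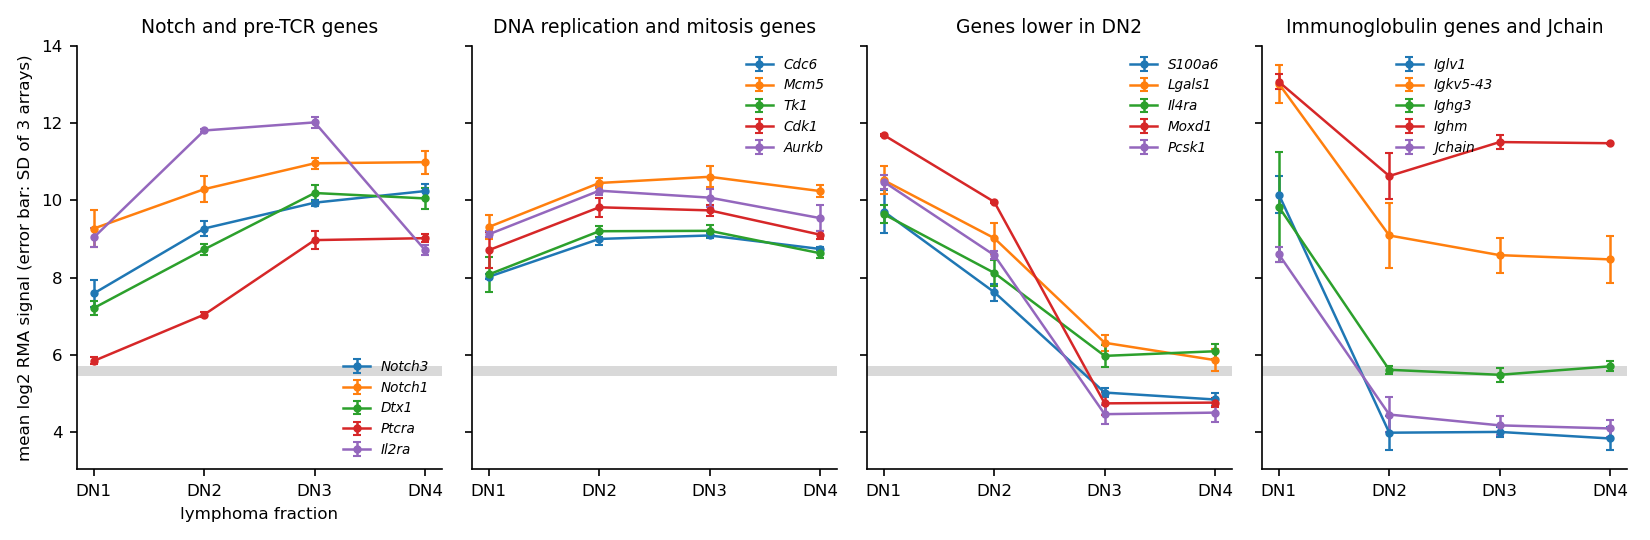
Mean log2 RMA signals (y axis, error bars are the SD of 3 arrays) are drawn over the lymphoma fractions DN1 to DN4 (x axis) for 4 groups of genes, with the grey band at the background level of 5.44 to 5.71. Replication and mitosis genes step up from DN1 to DN2, with no called change from DN2 to DN3. Moxd1 and Pcsk1 fall below background at DN3, and Jchain and Iglv1 lie below it from DN2 on.

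Some genes with the smallest p in the contrast of the steps did not pass the test at the first step. Susd4, a complement regulator gene, averaged 6.04 in DN1, 6.0 in DN2 and 10.37 in DN3 cells (adjusted p of the difference 2.83e-06, limma). The flippase gene Atp8a2, at 5.69, 5.70 and 9.97 over the same fractions, and the cyclin gene Ccnd2, at 5.93, 5.77 and 8.58, had the same course (adjusted p = 1e-05 for each, limma). Rhobtb3, Plk2 and Pde9a were below or at background in DN1 and DN2 cells and measured in DN3 cells. Muc13, a membrane mucin gene, averaged 10.99 in DN1, 10.33 in DN2 and 6.86 in DN3 cells (adjusted p = 4e-05, limma). Cyp2j6, a cytochrome P450 gene, did pass at the first step (adjusted p = 0.0075, limma, lost without DN2 replicate 3 at 0.0614), but lay below background in DN2 cells and at or below it in DN1 cells, and averaged 6.58 in DN3 cells.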

How the data were processed

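Total RNA of sorted cells (RNeasy Micro, amplified with the WT Pico kit, per the labels' protocols) was hybridised to Affymetrix arrays. The deposited values are log2 signals per probe set that the authors made with RMA in the oligo package, per the submitters' processing notes, which give no version. The build was not given in the sources used here. Of 41345 probe sets, 23521 had 1 gene symbol in the platform annotation, 1814 had several and 16010 had none. Only those with 1 symbol were used, and of several for a gene (1082 genes) the one with the highest mean over 18 arrays was kept, which left 22180 genes.

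Differences were tested with limma 3.58.1 (lmFit and eBayes, two-sided) in R 4.3.3 on group means of the 15 lymphoma arrays, adjusted over all genes by Benjamini-Hochberg, with a threshold of 0.05. The contrasts were DN2 minus DN1, DN3 minus DN2, and the first less the second. The number of arrays, 3 a fraction, limits the precision. The procedure was tested on simulated data. Genes were named by rule: the 25 largest rises and 25 largest falls above background without overlap (clone names, predicted genes and receptor segments left out), called members of each list, sort markers, Notch receptors, commitment factors, and the 10 smallest p of the contrast of the steps. Beyond that rule, list members that were not called were named after their values were seen. Members, lists and tests were chosen with earlier results of these data known, and the repair, chromatin, cytokine, immunoglobulin, T cell receptor segment and Ly6 lists were added after the files were seen. Promoters come from a RefSeq table on GRCm38.p6, matched by symbol (16990 of 22180 genes).

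Same-numbered DN2 and DN1 arrays deviated from their group means with correlations of 0.04, 0.334 and 0.072. Differently numbered arrays gave -0.179 to 0.078. These values do not settle whether the numbers pair the samples, and the main model did not pair them. If the fractions came from the same 3 lymphomas, the 15 arrays were not independent, which that model does not take into account. A model with the number as a block is given below.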

Additional observations from a re-analysis of the deposited data

How the results depend on the processing

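Against 300 genes called for DN2 minus DN1, other settings gave 274 to 394 (the 6 arrays alone, all 18, a filter on low values, quantile normalisation, median centring, mean probe sets, a trended prior, the replicate block), apart from the model without CLP with 537. Leaving out 1 or both arrays of a number gave 103 to 264. The block by replicate number gave 394 calls in 15 arrays and 393 in 6. It gave 698 without CLP, a setting chosen after seeing the data, as was leaving out the immunoglobulin genes (280). DN2 replicate 1 correlated best with DN1 replicate 3, so not every array matched its own number. Under quantile normalisation 45.1% of calls were higher in DN2, against 52.3%. The contrast of the steps called 136 genes, 123 to 170 under other settings, 254 without CLP, and 57 to 129 with 1 array left out (added after seeing the data). The cause of these changes was not tested.

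The Notch list median ran from 0.04 to 0.24 and that of the cytokine receptors from -0.36 to -0.21 with arrays left out. With the filter on low values the cytokine receptor median was -0.47 and that of immunoglobulin genes -3.34, since fewer members were tested, and under quantile normalisation the cytokine receptor median was -0.31. Of 50 genes with the largest changes, 28 passed the threshold in all alternatives. None changed direction. With arrays left out the direction could not change, because these genes were chosen for no overlap between the groups. Of 72 losses, 71 came with arrays left out, and the other was Cdk1 with the replicate block in 6 arrays (adjusted p = 0.0526, limma). Signal under the background level of 5.44 to 5.71 limited 29 of the falls, in which all DN2 arrays lay below it.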

Other observations

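Xist, the transcript of the inactive X chromosome in female cells, was called lower in DN2 cells while below background on all 6 arrays, at 3.86, 3.86 and 4.00 in DN2 cells, against 4.72, 4.32 and 5.03 in DN1 cells (adjusted p = 0.0123, limma). The call was lost without DN2 replicate 1, DN2 replicate 2, DN1 replicate 1 or DN1 replicate 3 (adjusted p = 0.0606, 0.0771, 0.0551 and 0.0649). The Y-linked genes Eif2s3y and Kdm5d were high in both fractions, with differences of -0.08 and -0.01. These genes were picked after their values were seen.

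A few genes rose at DN2 and fell at DN3. Acan, which encodes the proteoglycan aggrecan, changed by 0.96 and then by -1.79 (adjusted p of the difference between the steps 0.00113, limma), although its rise was called in only 1 of the 6 fits without 1 array, that without DN1 replicate 2 (0.0199). Adam2, Ctage5 and the kinase gene Prkca changed by 0.85, 0.64 and 0.56 and then by -0.91, -0.54 and -0.56. Of the fits without 1 array, Adam2 was called only without DN1 replicate 1 (0.018) and Prkca only without DN1 replicate 2 (0.0237), and Ctage5 was lost without DN2 replicate 2 (0.0519) or DN2 replicate 3 (0.0548).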
